A study of Mus musculus with 12 samples.

Results

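The histone deacetylase genes of mouse liver are described here: Hdac1, Hdac2, Hdac3, Hdac4, Hdac5, Hdac6, Hdac7, Hdac8, Hdac10 and Hdac11, 10 of the 19937 genes that had a probe set with a single gene symbol. Each was read from the probe set of that symbol with the highest mean over the arrays. Livers came from 12 male C57Bl/6 mice, all different animals, with 1 whole-transcript array each and 3 animals in each of 4 groups. The groups were knockout mice (HDAC6 Y/-, males without a working copy of this X-linked gene) given dexamethasone, knockout mice given vehicle, wild-type mice given dexamethasone and wild-type mice given vehicle. Dexamethasone, a synthetic glucocorticoid, was given at 1 mg/kg into the peritoneum over 3 weeks, and vehicle in the same way. The labels do not say which exons the knockout removes, whether it is restricted to a cell type, how old the mice were or at what hour the livers were taken. Levels are given as the deposited log2 intensities, and 1 unit on that scale equals a doubling.

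Histone deacetylases remove acetyl groups from lysines of histones and other proteins. The zinc-dependent enzymes fall into class I (Hdac1, Hdac2, Hdac3 and Hdac8, mainly nuclear), class IIa (Hdac4, Hdac5 and Hdac7, which move between nucleus and cytoplasm and bind MEF2 factors), class IIb (Hdac6 and Hdac10, largely cytoplasmic) and class IV (Hdac11). In liver, Hdac3 works with the NCoR complex and the clock repressor Nr1d1 on lipid genes, and class IIa enzymes enter the nucleus on fasting signals and act on FOXO factors at gluconeogenic genes. Hdac6 deacetylates tubulin and the chaperone Hsp90, on which the glucocorticoid receptor depends for hormone binding.

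All 8 measured hepatocyte markers were above the array median on every array, as the tissue label would have it. Transcripts of the exocrine pancreas were high on 4 arrays: the mean log2 level of 11 measured pancreas markers was 9.96 and 9.76 in wild-type vehicle 1 and 2, 8.68 in knockout vehicle 3 and 7.87 in wild-type dexamethasone 3, against 3.10 to 3.53 on the other arrays. Results below, apart from those of cell type markers, are also given without these 4 arrays where that changes a call. The wild-type vehicle group is then down to 1 array, which is taken to vary like arrays of the other groups. All 10 deacetylase genes passed the filter on low values, and each was above the array median on all 12 arrays.

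Hdac6 was the clear difference between the genotypes. It measured 3.62, 3.89 and 3.75 in knockout livers given dexamethasone and 4.40, 4.07 and 3.90 in knockout livers given vehicle. Wild-type livers had 5.86, 6.18 and 5.92 with dexamethasone and 6.09, 6.08 and 6.43 with vehicle. Every knockout array was thus lower than every wild-type array, as the labels have it. Such a separation over all 12 arrays held for 0.357% of all genes, 0.19% in the direction of lower in the knockout, and within one treatment 6.04% (vehicle) and 7.07% (dexamethasone) were lower without overlap. Under vehicle the knockout averaged 4.12 ± 0.26 against 6.20 ± 0.20 in wild type (SD, n = 3 each), a log2 change of -2.08 ± 0.14 (SE), or 4.22-fold lower, with an adjusted p of 3.70e-05 in limma. Under dexamethasone it averaged 3.75 ± 0.14 in the knockout and 5.99 ± 0.17 in wild type, 4.70-fold lower (-2.23 ± 0.14, adjusted p = 1.53e-05). In both comparisons Hdac6 had the smallest p of all genes tested. The knockout signal still lay above the array medians of 3.13 to 3.24. The positions of the probes along the gene are not given here, so transcript left after the deletion and background of the probe set cannot be told apart.

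**Figure D1:**
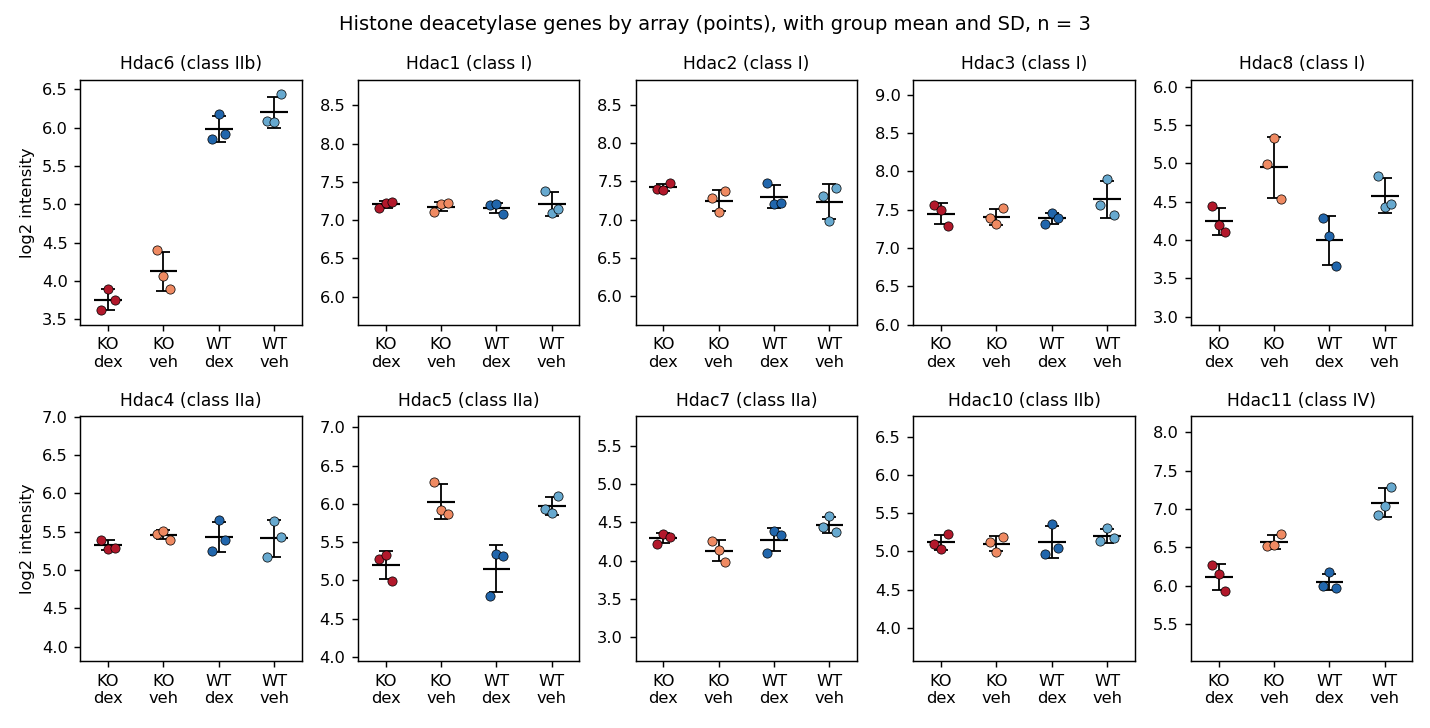
Log2 intensity (y axis, each panel spanning the same number of log2 units) of the 10 deacetylase genes on each array, by group: knockout (KO) with dexamethasone (dex) or vehicle (veh), then wild type (WT) with the same. Points are arrays, and the bar and whiskers are the mean and SD (n = 3); Hdac6 separates the genotypes, and Hdac5, Hdac11 and Hdac8 lie lower with dexamethasone.

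No other deacetylase gene was higher or lower in the knockout past the threshold, an adjusted p of 0.05 over all 17904 genes tested. Of the 9 genes besides Hdac6, 0 were called under vehicle, where 0.101% of all genes were (0.0391% higher and 0.0614% lower), 0 under dexamethasone, where 0.0279% were (0.0112% higher and 0.0168% lower), and 0 with treatments averaged, where 0.0503% were (0.0168% higher and 0.0335% lower). At an unadjusted p under 0.05, Hdac7 and Hdac11 were lower under vehicle, none differed under dexamethasone, and Hdac7, Hdac8 and Hdac11 differed with treatments averaged; 7.19%, 8.75% and 10% of all genes met that mark. The 95% intervals bound the changes: under vehicle the highest upper bound among the 9 was 0.80 and under dexamethasone 0.68, both for Hdac8, so a doubling lay outside the interval of each of the 9 on all 12 arrays. Without the 4 arrays with pancreas transcripts the Hdac8 interval under vehicle, 0.24 to 1.15, held a doubling. Median changes of the 9 were -0.03 under vehicle and 0.05 under dexamethasone, against 0.0004 and -0.0034 over all genes tested.

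Hdac10, the other class IIb enzyme and the closest relative of Hdac6, measured 5.09, 5.03 and 5.23 in knockout livers with dexamethasone and 5.12, 4.99 and 5.19 with vehicle. Wild-type livers had 4.96, 5.36 and 5.05 with dexamethasone and 5.13, 5.31 and 5.18 with vehicle. All 4 groups overlapped. Knockout and wild type differed by -0.01 under dexamethasone (95% interval -0.25 to 0.23) and by -0.10 under vehicle (-0.34 to 0.14).

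Hdac8, a class I enzyme encoded on the X chromosome like Hdac6, gave the highest knockout estimates. Its change was 0.37 under vehicle (95% interval -0.06 to 0.80, adjusted p = 0.748 in limma) and 0.25 under dexamethasone (-0.18 to 0.68, adjusted p = 0.762), and the groups overlapped in both. Without the 4 arrays with pancreas transcripts the vehicle estimate was 0.69 (adjusted p = 0.763). The estimate thus rests on which vehicle arrays are used.

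Hdac11 and Hdac7 pointed the other way under vehicle. Hdac11, the lone class IV enzyme, known to remove long fatty acyl groups from lysine, measured 6.51, 6.52 and 6.67 in knockout vehicle livers, against 6.92, 7.04 and 7.29 in wild-type vehicle livers. The groups did not overlap, as was so for 11.8% of all genes under vehicle and 14% under dexamethasone, and the change of -0.51 ± 0.12 (SE) missed the threshold (adjusted p = 0.290 in limma). It was -0.77 without the 4 arrays with pancreas transcripts (adjusted p = 0.507). Hdac7, a class IIa enzyme known for its role in endothelium, measured 4.25, 4.14 and 3.98 in knockout vehicle livers and 4.44, 4.58 and 4.38 in wild-type vehicle livers, also without overlap (-0.34 ± 0.10, adjusted p = 0.480). It was at -0.18 without those 4 arrays. The 11 endothelial markers had mean levels of 6.58 to 6.71 in knockout vehicle livers and 6.74 to 6.94 in wild-type vehicle livers. Of these 0 were called, where 0.101% of all genes were. Their median log2 change was -0.19, beside -0.26 for 13 Kupffer cell and -0.20 for 9 stellate cell markers. The median was -0.13 for cholangiocyte, -0.09 for T, NK and B cell and 0.02 for hepatocyte markers. The part of these cell types in the Hdac7 difference was not tested. In bulk liver, fewer cells of a type and less RNA per cell cannot be told apart. Under dexamethasone Hdac11 changed by 0.07 (95% interval -0.19 to 0.32) and Hdac7 by 0.02 (-0.21 to 0.24).

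Hdac1, Hdac2, Hdac3, Hdac4 and Hdac5 overlapped between the genotypes under both treatments, with changes from -0.23 to 0.12. Hdac3, the catalytic partner of NCoR, measured 7.39, 7.31 and 7.52 in knockout vehicle livers against 7.56, 7.90 and 7.43 in wild-type vehicle livers (-0.23, 95% interval -0.49 to 0.04). A second probe set for Hdac1 changed by -0.12 under vehicle and -0.04 under dexamethasone, and one for Hdac4 by 0.11 and -0.08, all 4 with overlapping groups.

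Dexamethasone lowered a few deacetylase genes and raised none past the threshold. In the knockout 3 of the 10 were lower, Hdac5, Hdac11 and Hdac8, where 8.29% of all genes were called, 4.38% higher and 3.92% lower. In wild type 2 of the 10 were lower, Hdac5 and Hdac11, where 11.5% of all genes were called, 4.57% higher and 6.95% lower. With genotypes averaged, Hdac5, Hdac11 and Hdac8 were lower where 17.2% of all genes were called, 7.29% higher and 9.94% lower. The median change of the 10 genes was -0.06 in the knockout and -0.20 in wild type, against -0.01 and 0.01 over all genes. The list is short, and these counts describe it without a test of the family as a whole.

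The sequence before the annotated gene start is shown for Hdac5 and Hdac11, the genes called with dexamethasone in both genotypes. It comes from RefSeq, build GRCm38.p6, reads 5′ to 3′ along the gene's strand and ends at the base before the gene. Capitals mark GGGCGG, a motif of Sp1-type factors, on either strand.
Hdac5: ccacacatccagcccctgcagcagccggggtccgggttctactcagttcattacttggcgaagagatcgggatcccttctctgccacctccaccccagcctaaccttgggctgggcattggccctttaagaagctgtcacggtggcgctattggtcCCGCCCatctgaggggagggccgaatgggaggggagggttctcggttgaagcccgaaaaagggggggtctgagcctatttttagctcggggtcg
Hdac11: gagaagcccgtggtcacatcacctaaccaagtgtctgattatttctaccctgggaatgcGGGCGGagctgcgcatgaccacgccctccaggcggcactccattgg
The first is chr11:102230173-102230422 on the minus strand and the second chr6:91156565-91156669 on the plus strand.

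Motifs were searched on both strands of the 250 bases before each transcript start in the table, 10 windows for 7 of the 10 genes. The full glucocorticoid receptor element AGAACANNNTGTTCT was in 0 of these windows and in 0.00913% of all 32851 windows. A single arm of it, AGAACA, was in 1, that of Hdac11, and in 16.1% of all windows. That match lay past the annotated start of the Hdac11 gene and so outside the sequence printed above. The E-box CACGTG, bound by clock factors, was in 0 and in 6.02% of all, and GGGCGG in 6 and in 32.7% of all. The Hdac8 window held none of the 4 motifs. These are matches of letters in short windows and say nothing of binding.

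Hdac5, a class IIa enzyme that shuttles out of the nucleus when phosphorylated, responded alike in size in both genotypes. In the knockout it measured 5.27, 5.34 and 4.997 with dexamethasone, against 6.29, 5.92 and 5.87 with vehicle. In wild type it measured 4.79, 5.34 and 5.32 with dexamethasone, against 5.93, 5.88 and 6.10 with vehicle. All 6 dexamethasone arrays were lower than all 6 vehicle arrays, a separation found for 8.76% of all genes and, in this direction, for 4.47%. The change was -0.82 ± 0.16 (SE) in the knockout, 1.77-fold lower (adjusted p = 4.84e-03 in limma), and -0.82 ± 0.16 in wild type, 1.76-fold lower (adjusted p = 4.32e-03). Their difference was -0.01 with a 95% interval of -0.49 to 0.48. Without the 4 arrays with pancreas transcripts the changes were -0.90 in the knockout, still called, and -1.03 in wild type, no longer called (adjusted p = 0.0651).

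Hdac11 showed its larger dexamethasone estimate in wild type. It measured 6.26, 6.15 and 5.93 in knockout livers with dexamethasone, against 6.51, 6.52 and 6.67 with vehicle. In wild-type livers it measured 6.00, 6.17 and 5.97 with dexamethasone, against 6.92, 7.04 and 7.29 with vehicle. The dexamethasone and vehicle arrays did not overlap in either genotype, which held for 24.3% of all genes in the knockout (12.6% lower) and 27% in wild type (14.5% lower). The groups ran from wild-type vehicle through knockout vehicle down to both dexamethasone groups, which overlapped. The change was -0.45 ± 0.12 (SE) in the knockout, 1.37-fold lower (adjusted p = 0.0282 in limma), and -1.04 ± 0.12 in wild type, 2.05-fold lower (adjusted p = 8.28e-05). The difference between the responses, knockout minus wild type, was 0.58 ± 0.17 and missed the threshold (adjusted p = 0.611, unadjusted p = 0.00380).

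The Hdac11 call in wild type remained without any single array and without the 4 arrays with pancreas transcripts (-1.20). The array free of pancreas transcripts among the wild-type vehicle animals, at 7.29, was the highest of its group. The knockout call was lost without those 4 arrays (-0.40, adjusted p = 0.105) and without knockout vehicle 1, 2 or 3 or knockout dexamethasone 2 or 3, at -0.48 to -0.36 (adjusted p = 0.0606 to 0.124).

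Hdac8 was lower with dexamethasone in the knockout and close to the threshold in wild type. It measured 4.44, 4.20 and 4.10 in knockout livers with dexamethasone, against 4.99, 5.33 and 4.54 with vehicle. Wild-type livers had 4.29, 4.05 and 3.66 with dexamethasone and 4.84, 4.43 and 4.46 with vehicle. The groups did not overlap within either genotype, which held for 24.3% of all genes in the knockout (12.6% lower) and 27% in wild type (14.5% lower). Wild-type vehicle and knockout dexamethasone arrays did overlap. The change was -0.71 ± 0.20 (SE) in the knockout (1.63-fold lower, adjusted p = 0.0458 in limma) and -0.58 ± 0.20 in wild type (adjusted p = 0.0832), with a difference of -0.12 (95% interval -0.73 to 0.49). The knockout call was lost when knockout vehicle 1 or 2, knockout dexamethasone 2 or 3, wild-type dexamethasone 2 or wild-type vehicle 2 or 3 was left out, at -0.71 to -0.52 (adjusted p = 0.0515 to 0.188), with no filter on low values (0.0512) and in a fit of the 2 knockout groups alone (0.0631). The wild-type change was called with arrays centred on their medians (adjusted p = 0.0460) and without knockout vehicle 3 (0.0491). Without the 4 arrays with pancreas transcripts the Hdac8 change was -0.91 in the knockout (called) and -0.30 in wild type. The difference was then -0.62, with 1 wild-type vehicle array left, so its size rests on which arrays are used.

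Hdac6 itself was not called with dexamethasone. Its change was -0.37 in the knockout, where the arrays did not overlap (95% interval -0.68 to -0.06, adjusted p = 0.167 in limma) and -0.21 in wild type (-0.53 to 0.10, adjusted p = 0.416). Averaged over genotypes it was -0.29 (adjusted p = 0.0695), and it was called with arrays centred on their medians (-0.31, adjusted p = 0.0431), without wild-type dexamethasone 2 (-0.34, 0.0485) and without knockout vehicle 3 (-0.35, 0.0378). Hdac1, Hdac2, Hdac3, Hdac4, Hdac7 and Hdac10 had dexamethasone changes between -0.14 and 0.17 in the knockout and between -0.25 and 0.06 in wild type. Of these 0 were called, and Hdac2 alone did not overlap, being higher with dexamethasone in the knockout. In that comparison, where Hdac6 did not overlap either, groups did not overlap for 24.3% of all genes, 11.7% higher and 12.6% lower. The second probe sets of Hdac1 and Hdac4 lay between -0.26 and 0.05 and were not called.

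Markers of other liver cells also moved with dexamethasone. Of 13 Kupffer cell markers 0 were lower and 1 higher in the knockout, and 10 lower and 1 higher in wild type, beside 8.29% of all genes called in the knockout and 11.5% in wild type. Their mean level was 6.43 to 7.30 in knockout dexamethasone livers against 6.52 to 6.89 in knockout vehicle livers, and 5.77 to 6.23 in wild-type dexamethasone livers against 6.66 to 7.41 in wild-type vehicle livers. Of 11 endothelial markers 3 were lower and 2 higher in the knockout and 5 lower and 1 higher in wild type. Of 9 tested T, NK and B cell markers 0 were called in the knockout and 4 were lower in wild type. The mean level of the 10 measured was 2.60 to 2.66 in knockout dexamethasone livers against 2.78 to 2.80 in knockout vehicle livers. In wild type it was 2.55 to 2.67 with dexamethasone against 2.77 to 3.06 with vehicle. All these means lay below the array medians of 3.13 to 3.24, so these markers were measured at low levels. Of 9 stellate cell markers 1 was lower in the knockout and 2 in wild type. For the difference between the responses of the genotypes, 0 members of these lists were called, where 0% of all genes were. The marker counts were not recomputed without the 4 arrays with pancreas transcripts. The part of these cell types in the Hdac5, Hdac11 and Hdac8 changes was not tested.

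No deacetylase gene was called for a genotype difference in the dexamethasone response: limma called 0 of the 10, and 0% of all genes, at the adjusted threshold. At an unadjusted p under 0.05, Hdac11 (0.58) and Hdac7 (0.36) stood out, as did 6.19% of all genes (1109 genes). Hdac7 changed by 0.17 in the knockout and by -0.19 in wild type, both short of the threshold. The 10 differences ran from -0.15 to 0.58 with a median of 0.09.

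Genes that act with the deacetylases showed no genotype calls and several dexamethasone calls. In 6 lists, sirtuins (7 tested), subunits of deacetylase corepressor complexes (26), acetyltransferases (14), substrates and partners of Hdac6 (18), kinases and partners of class IIa enzymes (21) and partners of hepatic Hdac3 (5), 0 members were called between knockout and wild type under either treatment. Over all genes 0.101% were called under vehicle and 0.0279% under dexamethasone, so these lists cannot be set apart from all genes by such counts. At an unadjusted p under 0.05, 5 of the 88 genes differed under vehicle, where 7.19% of all genes did, and 5 under dexamethasone, where 8.75% did. Sirtuins, the NAD-dependent deacetylases, had 0 of 7 called with dexamethasone in each genotype as well, and 0 at an unadjusted p under 0.05. Over all genes 8.29% were called in the knockout and 11.5% in wild type, and 18.5% and 23.6% met the unadjusted mark. A list of 7 cannot be set apart from these shares.

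Among substrates and partners of Hdac6, alpha-tubulin genes moved in both directions with dexamethasone. In the knockout 1 of 18 was higher and 2 lower, where 8.29% of all genes were called, and in wild type 1 higher and 3 lower, where 11.5% were. Tuba8 averaged 5.78 with dexamethasone against 4.36 with vehicle in the knockout, 2.68-fold higher (adjusted p = 3.03e-03 in limma), and 5.91 against 4.42 in wild type, 2.80-fold higher (adjusted p = 2.07e-03). Tuba4a was 1.69-fold lower in the knockout and 1.68-fold lower in wild type. Tuba1a was called in wild type (-0.64) and not in the knockout (-0.33), and the difference of 0.31 was not called (adjusted p = 0.894). Sqstm1, the autophagy receptor p62 that binds ubiquitinated cargo, fell by 0.53 in the knockout and by 0.54 in wild type. The Tuba1a call was lost without wild-type dexamethasone 1 or 2 or wild-type vehicle 1 or 2, and the Sqstm1 call in the knockout without knockout dexamethasone 3 or knockout vehicle 2 or 3. Without the 4 arrays with pancreas transcripts 2 were higher and 1 lower in the knockout (5.84% of all genes called) and 0 were called in wild type (3.12% of all genes), with Tuba8 at 1.35 and 1.24.

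Acetyltransferases include the enzymes that oppose the deacetylases. Ep300, the coactivator p300, measured 7.96, 7.85 and 7.59 in knockout livers with dexamethasone, against 7.05, 6.90 and 6.99 with vehicle, a 1.77-fold increase (adjusted p = 2.30e-04 in limma). In wild-type livers it measured 7.35, 7.58 and 7.48 with dexamethasone, against 6.91, 6.97 and 6.97 with vehicle, 1.43-fold higher (adjusted p = 5.64e-03). Atat1, which acetylates the tubulin lysine that Hdac6 deacetylates, fell by 0.51 in the knockout (adjusted p = 7.45e-03), and its change in wild type was -0.30 (adjusted p = 0.0854). The counts were 1 higher and 1 lower of 14 in the knockout, beside 8.29% of all genes called, and 1 higher and 0 lower in wild type, beside 11.5%. Without the 4 arrays with pancreas transcripts the wild-type Ep300 change of 0.49 was not called (adjusted p = 0.240).

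**Figure D2:**
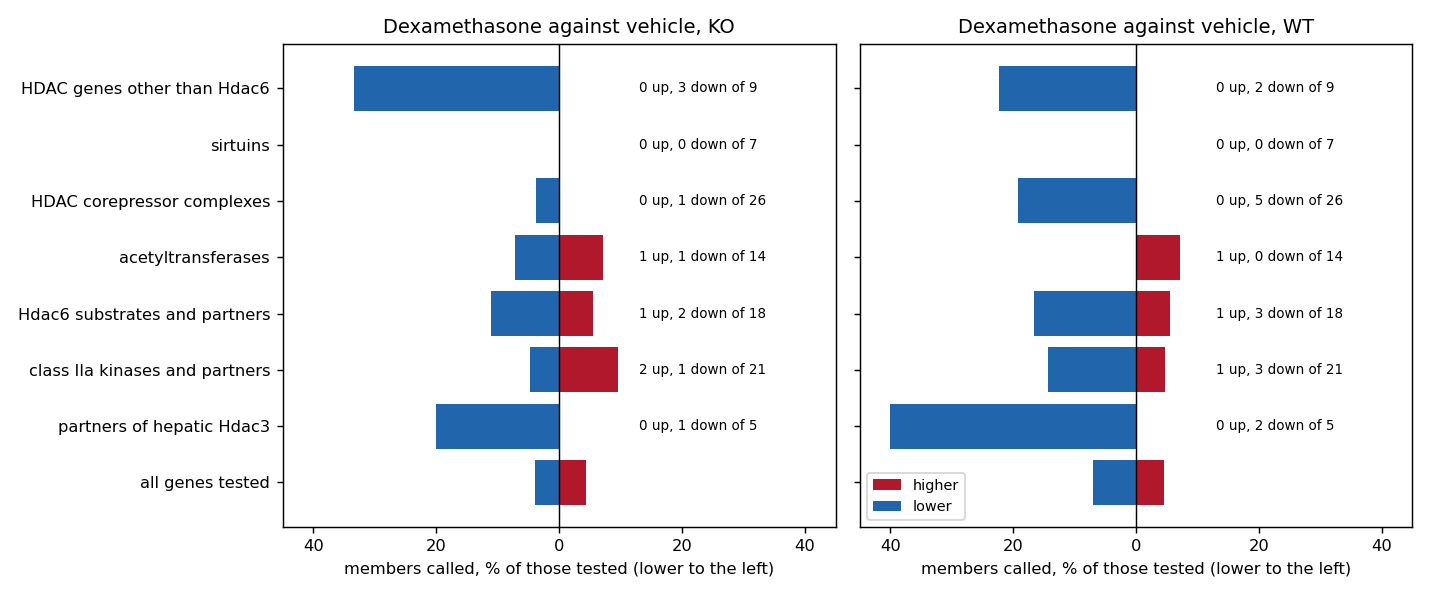
Share of each list called (x axis, percent of members tested), higher to the right and lower to the left, for dexamethasone against vehicle in the knockout (left panel) and wild type (right panel), with counts printed. The lowest bar gives all 17904 genes; the lists are short, so single genes make large shares.

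Around the class IIa enzymes, 2 of 21 kinases and partners were higher and 1 lower with dexamethasone in the knockout, and 1 was higher and 3 lower in wild type, beside 8.29% and 11.5% of all genes called; so few genes do not set the list apart from these shares. Foxo1, a transcription factor of gluconeogenic genes that class IIa complexes deacetylate, rose 2.26-fold in the knockout (adjusted p = 6.57e-05 in limma) and 2.35-fold in wild type (adjusted p = 4.41e-05). Foxo3 rose by 0.63 in the knockout, with 0.43 in wild type short of the threshold (adjusted p = 0.0610). Prkd3, a protein kinase D of the family that phosphorylates class IIa enzymes, was 2.77-fold lower in the knockout and 3.18-fold lower in wild type. Camk1, a calcium/calmodulin kinase, fell by 0.44 in wild type and was at 0.02 in the knockout; the difference of 0.46 was not called (adjusted p = 0.472). Prkd2 fell by 0.34 in wild type, a call lost without any one of 7 arrays (knockout dexamethasone 2, knockout vehicle 2 and 3, wild-type dexamethasone 1 and 2, wild-type vehicle 1 and 3), and the Foxo3 call was lost without knockout dexamethasone 3 (adjusted p = 0.0535). Mef2c, a MEF2 factor that class IIa enzymes repress, was called with genotypes averaged (-0.30, adjusted p = 0.0139) and in neither genotype alone; without the 4 arrays with pancreas transcripts it was -0.21 and not called (adjusted p = 0.312). Foxo1 and Prkd3 were called in both genotypes without the 4 arrays with pancreas transcripts, and the counts there were 2 higher and 1 lower in the knockout and 1 and 1 in wild type, beside 5.84% and 3.12% of all genes called.

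Among corepressor subunits 1 of 26 was lower with dexamethasone in the knockout, Rcor1 (-0.43), the CoREST scaffold of Hdac1 and Hdac2, and 5 were lower in wild type, where 3.92% and 6.95% of all genes were called lower. The wild-type calls with the smallest p were Mta3 of the NuRD complex (-0.55), Tbl1x of the NCoR complex (-0.31), Ing2 of the Sin3 complex (-0.56) and Dnttip1 (-0.30). Single arrays ended several of them: Rcor1 without knockout vehicle 2, Tbl1x without wild-type dexamethasone 1 or 2 or wild-type vehicle 1, Ing2 without any wild-type dexamethasone array or wild-type vehicle 1 or 2, and Dnttip1 without any wild-type dexamethasone array, wild-type vehicle 2 or 3 or knockout dexamethasone 2. None of these differed between genotypes past the threshold in the response itself, where 0% of all genes did. The Mta3 call in wild type held without each single array, with a highest adjusted p of 0.0490 in limma. It was lost when the mean of all probe sets of a gene was used. In the 8 arrays free of pancreas transcripts 0 of 26 were called in wild type and 1, Rcor1, in the knockout. Nr1d1, which recruits NCoR and Hdac3, averaged 6.64 with dexamethasone against 9.35 with vehicle in the knockout and 5.76 against 9.35 in wild type. With Tbl1x it made up the calls among 5 tested partners of hepatic Hdac3, 1 lower in the knockout and 2 lower in wild type.

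**Figure D3:**
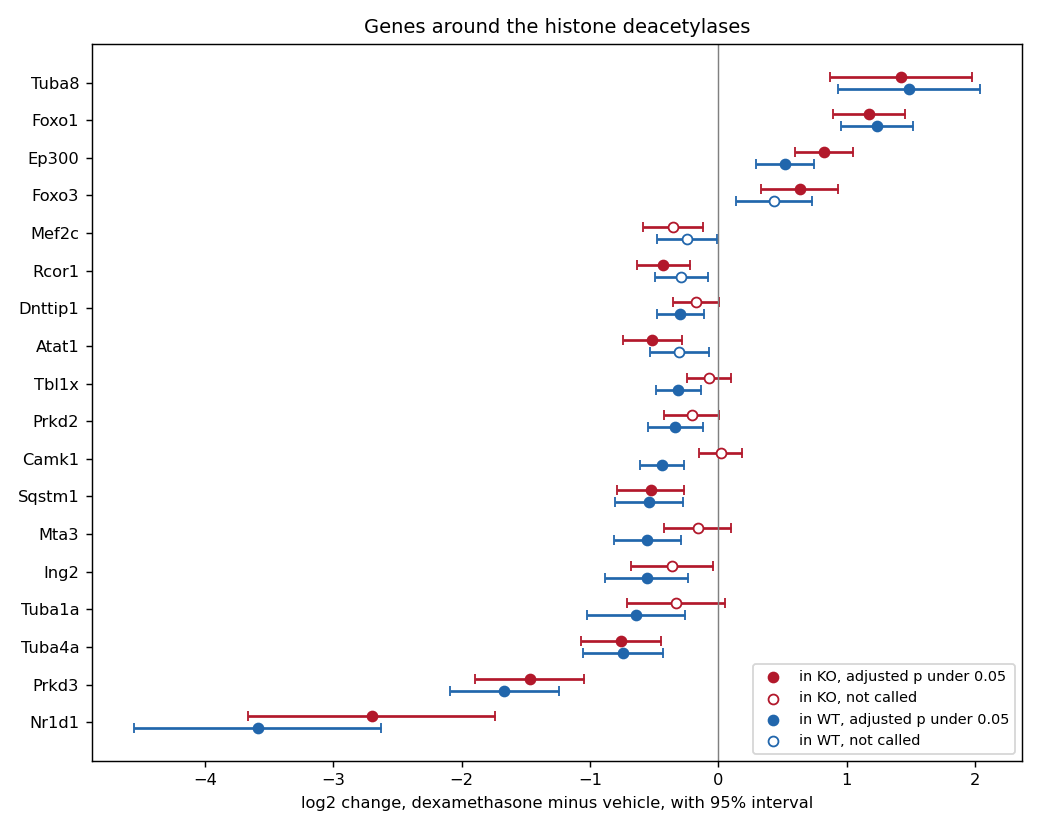
Log2 change with dexamethasone (x axis) and 95% interval for the named genes of the lists, in knockout (red) and wild type (blue), ordered by the wild-type change; filled points have an adjusted p under 0.05. Tuba8, Foxo1 and Ep300 are called higher in both genotypes, and Nr1d1, Prkd3, Tuba4a and Sqstm1 lower in both.

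Likeness over the 12 arrays was taken as Pearson's r with each called deacetylase gene and serves as a description, since the arrays share the genotype and drug groups. The genes most like Hdac6 were Stk11ip (0.88), Parp16 (0.88) and Map1b (0.85). Their group means spanned 4.24 to 4.49, 5.53 to 6.03 and 2.46 to 2.75, against 3.75 to 6.20 for Hdac6. The Map1b means lay below the array medians of 3.13 to 3.24. Most like Hdac5 were Wdr91 (0.97), Slc12a7 (0.97) and Tnfaip2 (0.95). Arsa (0.97), Dclk3 (0.97) and Cnppd1 (0.96) were most like Hdac11, and Ddx17 (0.96), Spon2 (0.94) and Fubp1 (0.93) most like Hdac8. Within the family the highest r was 0.81, between Hdac5 and Hdac11, followed by 0.66 between Hdac5 and Hdac8, and the lowest was -0.72, between Hdac2 and Hdac4.

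Genes beside Hdac6 on its chromosome were not called with it. Of the 5 named protein-coding genes on either side, 9 were tested. Between knockout and wild type 0 were called under vehicle, under dexamethasone or on average, where 0.101%, 0.0279% and 0.0503% of all genes were. None reached an unadjusted p under 0.05, where 7.19%, 8.75% and 10% of all genes did. So few genes cannot be set apart from these shares. Pcsk1n and Eras were higher without overlap under vehicle, and Slc35a2 was lower without overlap under dexamethasone. Groups did not overlap for 11.8% and 14% of all genes. Their changes lay between -0.25 and 0.16 under vehicle and between -0.24 and 0.19 under dexamethasone.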

How the data were processed

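Liver RNA of 12 mice was labelled and hybridised to Affymetrix whole-transcript arrays, per the labels' protocols. The deposited values are log2 intensities, 1 column per array for 34760 probe sets, made by the authors in R 2.10.0 with affy, per the submitters' processing notes; background correction, normalisation and summarisation are not given in the sources used here. Base 2 was taken from the range of 0.927 to 13.5. The supplied probe annotation gave 21640 probe sets 1 symbol, 1321 several and 11799 none; the last 2 kinds were not used. A gene was tested if it exceeded its array's 20th percentile on at least 3 arrays (17904 genes). Group means of all 12 arrays were fitted with limma 3.58.1 in R 4.3.3 (8 residual degrees of freedom), with Benjamini-Hochberg adjustment over all genes and a threshold of 0.05. The number of arrays limits the precision. The fit was tested on simulated data. Comparisons were knockout against wild type under each treatment and on average, dexamethasone against vehicle in each genotype and on average, and the difference of the dexamethasone responses. Genes named are the 10 members, up to 4 called members of each list with the smallest p, and the 3 genes most like each called member, predicted genes left out. Some listed genes were not tested here, among them Tuba1b, Tuba1c, Hsp90ab1 and Hsf1. Members and lists were chosen with earlier results of these data known. Alternatives were other filters, normalisations, probe set rules, variance models, array weights, a replicate block, 2-group fits, leaving out the 4 arrays with pancreas transcripts, and leaving out each array.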

Additional observations from a re-analysis of the deposited data

How the results depend on the processing

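Over 1510 recomputed log2 changes of the 10 genes, 1476 kept their side of the threshold or, if uncalled, moved by less than the residual SD; 17 called changes were lost, 6 became called, 11 moved further and 0 called changes turned sign. Many of these settings could not move a log2 change. Another filter, another variance model or leaving out an array of a group outside the comparison alters only the p-value. The calls of Hdac8 and Hdac11 with dexamethasone in the knockout were lost in 9 and 7 of 22 settings. Hdac6 stayed called between genotypes in every setting. The count of deacetylase genes called with dexamethasone in the knockout, 3, ranged from 1 to 3 with single arrays left out, and in wild type 2 became 1 without the 4 arrays with pancreas transcripts. Deviations of same-numbered arrays from their group means correlated at -0.54 to 0.36, with 3 of 18 pairs above 0.1. The highest value joined knockout vehicle 3 and wild-type dexamethasone 3, both with pancreas transcripts. The lowest joined knockout vehicle 3 and wild-type vehicle 3, the latter without them. These correlations thus cannot settle whether replicate numbers link the samples. With the replicate block 2 deacetylase genes were called with dexamethasone in the knockout (Hdac5 and Hdac8; Hdac11 at -0.45, adjusted p = 0.0501) and 3 in wild type (Hdac8 joining at -0.58, adjusted p = 0.0263). Counts over all genes moved by over 1.5 times without the 4 arrays with pancreas transcripts: with dexamethasone in wild type, 2064 became 559; averaged over genotypes, 3085 became 1695. Genotype counts of 18 under vehicle, 5 under dexamethasone and 9 on average became 5, 1 and 3. They ranged over 5 to 28, 1 to 37 and 5 to 29 with single arrays left out; 2-group fits gave 9 and 3, the block 29 on average, array weights 22, a trended robust variance 14, and no filter 3 under dexamethasone. The response difference had 1 call without the 4 arrays and up to 3 without single arrays, against 0. With arrays centred on their medians, 657 genes were higher and 1551 lower with dexamethasone in wild type, against 819 and 1245. The number of arrays, 3 a group, limits the precision.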
